A study of Mus musculus with 3 samples.

Results

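Within the aortic wall of mice, 1636 of 5348 kept CD45+ cells were resident macrophages. Of these, 349 carried a high summed level of transcripts for MGL1 (*Clec10a*) and the CD209 lectins *Cd209d*, *Cd209f* and *Cd209g*. These cells are called CD209-MGL1 high macrophages here, and the remaining 1287 are called the other resident macrophages. They were chosen from their own transcripts. A barcode was kept when its top hashtag count was at least 3 times the second, mitochondrial UMIs (unique molecular identifiers, 1 per captured molecule) were at most 10% and at least 3000 gene UMIs were counted. A resident macrophage had at least 20 UMIs per 10000 for *C1qa*, *C1qb* and *C1qc* together, at least 15 for *Lyve1*, *Folr2*, *F13a1* and *Cbr2* together, and no UMI of *Cd79a* or *Cd3e*. CD209-MGL1 high cells also had at least 8 UMIs per 10000 for the 4 lectin genes together.

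The cells came from CITE-seq, which counts the transcripts of a cell together with DNA-tagged antibodies on its surface, of leukocytes sorted from enzymatically digested aortas. All 10 mice were on a C57BL/6 background and ate normal chow, and both sexes were used in the study. The 5 *Jak2WT* mice (mice 1 to 5) were littermate controls. In the 5 *Jak2V617F Myel* mice (mice 6 to 10), a Jak2V617F Flex/WT allele was recombined by LysM-Cre, which is driven by the lysozyme M promoter and acts in monocytes and neutrophils as well as in macrophages. Mice 7 and 9 had an aortic aneurysm and mice 6, 8 and 10 had aortic dilation without aneurysm. Treatment was none for all of them, apart from an intravenous CD45 antibody given shortly before death to mark circulating cells, and the age of these mice was not given in the sources used here. Sorting balanced the 2 genotypes in cell number, so cell numbers per aorta cannot be read from these data. All cells went through 1 droplet run and shared its free RNA.

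Resident macrophages of the arterial wall, seeded early in life and maintained locally, lie mainly in the adventitia and are known by the hyaluronan receptor LYVE-1 and the folate receptor FOLR2. MGL1 is a C-type lectin that binds galactose and N-acetylgalactosamine on glycoproteins. The CD209 family, mouse relatives of human DC-SIGN, are C-type lectins that bind mannose and fucose residues on microbes and on glycoproteins of the host. *Jak2V617F* is an activating mutation of the kinase JAK2, which signals below cytokine receptors through STAT transcription factors.

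These cells were macrophages by the rule that chose them, and *Lyve1* was only slightly higher than in the other resident macrophages. After each cell was thinned to 3000 UMIs, *Lyve1* was detected in 92.3% of CD209-MGL1 high cells, 83.4% of the other resident macrophages and 5.10% of 569 B cells, which should lack it. The level of *Lyve1* over the 10 mice ran from 11.1 to 19.8 UMIs per 10000 in CD209-MGL1 high cells (median 17.8) and from 10.1 to 18.8 in the other resident macrophages (median 15.1). *Lyve1* was higher in the CD209-MGL1 high cells of each of the 10 mice, by a mean log2 difference of 0.15. *Folr2* differed more, with a median level of 14.1 against 9.15 UMIs per 10000 and a mean log2 difference of 0.62. *Cbr2* was higher in only 7 of 10 mice. Since the rule used these genes, their values are descriptions. *Mrc1*, outside the rule, was detected after thinning in 99.1% of CD209-MGL1 high cells, 97.6% of the other resident macrophages and 7.56% of B cells.

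The 7 *Cd209* genes lie together on chromosome 8, within 394 kb (GRCm38, from *Cd209a* at position 3743397 to *Cd209g* ending at 4137707), and *Clec10a* lies apart at chr11:70156197-70170834 on the plus strand. The starts of *Cd209f* and *Cd209g* are shown because these genes were counted together in the same cells. That of *Cd209d* is shown because its level in the selected cells differed most by genotype among the lectins. This is a description, since the rule used *Cd209d*. Each entry holds 300 bases, 250 before the annotated start and 50 from it (RefSeq, GRCm38.p6), read on the strand of the gene. Capitals in *Cd209f* and *Cd209g* mark the longest run they share, 180 bases, and capitals in *Cd209d* mark a match to a MAF half-site.
Cd209f: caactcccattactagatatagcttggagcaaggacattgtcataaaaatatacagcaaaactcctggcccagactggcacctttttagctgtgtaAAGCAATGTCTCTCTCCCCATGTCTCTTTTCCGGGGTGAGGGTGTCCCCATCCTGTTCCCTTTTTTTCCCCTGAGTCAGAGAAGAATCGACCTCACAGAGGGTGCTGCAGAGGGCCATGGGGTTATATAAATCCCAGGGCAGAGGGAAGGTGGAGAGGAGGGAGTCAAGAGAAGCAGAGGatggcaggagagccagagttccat
Cd209g: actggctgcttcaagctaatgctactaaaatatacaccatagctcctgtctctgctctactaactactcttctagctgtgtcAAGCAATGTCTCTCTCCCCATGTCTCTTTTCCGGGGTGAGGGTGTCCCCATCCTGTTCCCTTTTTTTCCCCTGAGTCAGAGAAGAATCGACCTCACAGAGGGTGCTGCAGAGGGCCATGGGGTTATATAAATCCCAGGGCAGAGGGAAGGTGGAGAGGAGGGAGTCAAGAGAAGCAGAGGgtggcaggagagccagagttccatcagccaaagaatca
Cd209d: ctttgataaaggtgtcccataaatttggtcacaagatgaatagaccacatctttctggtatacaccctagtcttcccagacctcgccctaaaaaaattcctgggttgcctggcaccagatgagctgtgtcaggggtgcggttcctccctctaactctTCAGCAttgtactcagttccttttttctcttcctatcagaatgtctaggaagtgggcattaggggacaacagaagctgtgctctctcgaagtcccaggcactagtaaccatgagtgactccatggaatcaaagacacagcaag
Aligned over their whole length, the *Cd209f* (chr8:4105715-4106014, minus strand) and *Cd209g* (chr8:4134486-4134785, plus strand) entries were 81.2% identical. The 5 other pairs among *Cd209b*, *Cd209d*, *Cd209f* and *Cd209g* were 45.7% to 58.8% identical. The motif TGCTGA (MAF half-site), searched on both strands, occurred once, in *Cd209d* (chr8:3878450-3878749, minus strand), and in none of the other 3. This motif is present in 19.5% of 32851 promoters of the same length. The motif GAGGAAGT (PU.1, 3.20% of promoters) and the motif TTCNNNGAA (STAT, 8.30% of promoters) were found in none of these 4 windows. Such matches describe letters, not binding. Reads of near-identical *Cd209* genes may also be assigned to the wrong member, so the split between them is less certain than their sum.

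The 4 lectins divided the CD209-MGL1 high cells into overlapping kinds. A UMI of all 4 lectins was counted in 142 cells, of 3 in 103 cells, of 2 in 35 cells and of 1 in 69 cells. *Clec10a* was the most counted lectin in 169 cells and *Cd209f* in 134, while *Cd209g* led in 17 and *Cd209d* in 12. *Clec10a* was missing from 12 cells, whereas 69 cells had *Clec10a* alone, with no UMI of the 3 *Cd209* genes. Across the 349 cells, *Cd209f* and *Cd209g* varied together (Spearman rho 0.761), and *Cd209d* followed both (0.483 with *Cd209f*, 0.425 with *Cd209g*). *Clec10a* ran against *Cd209f* (rho -0.263) and *Cd209g* (-0.281) but not *Cd209d* (0.0173), and the limit was on their sum, which a cell can pass with 1 of them. These points share a library and the selection, so they carry no test.

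The lectin level was a continuum, and the limit cut through it. Among CD209-MGL1 high cells it ran from 8.00 to 102 UMIs per 10000 with a median of 17.6, against a median of 1.04 in the other resident macrophages, of which 454 had no lectin UMI. Just inside the limit, 31 cells between 8 and 9 had a median of 8.53. Just outside it, 44 cells between 7 and 8 had a median of 7.48. The mean lectin level was 0.216 in B cells, whose median depth was 6009 UMIs against 10799 in CD209-MGL1 high cells and 10479 in the other resident macrophages. Thinned to 3000 UMIs, *Clec10a* was detected in 81.9% of CD209-MGL1 high cells, 30.1% of the others and 1.93% of B cells (96.6%, 58.9% and 5.27% without thinning). *Cd209d* was detected in 28.1%, 0.777% and 0.176% of the same classes.

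Lectin makeup differed between mice. In mouse 4, a *Jak2WT* mouse with 11 such cells, *Clec10a* made up 74.5% of the lectin UMIs, against 26.1% to 41.9% in the other mice. *Cd209d* made up 4.03% to 7.59% of the lectin UMIs in the 5 *Jak2WT* mice and 12.7% to 14.1% in the 5 *Jak2V617F Myel* mice. The level of *Cd209d* was 1.18, 1.65, 0.874, 0.520 and 1.64 UMIs per 10000 in mice 1 to 5. It was 3.78, 3.95, 3.72, 2.93 and 2.54 in mice 6 to 10, and the genotypes did not overlap (means 1.17 and 3.38). The rule used *Cd209d*, so these values describe the selected cells and are no finding. Among all 4594 genes tested, the mice of the genotypes did not overlap in 95 (2.07%). *Clec10a* itself had a level of 6.68 to 9.61 in *Jak2WT* and 7.13 to 10.99 in *Jak2V617F Myel* mice, which overlapped.

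Whether the mutation changed the share of these cells was asked over mice. CD209-MGL1 high cells were 10.0%, 25.6%, 13.4%, 18.6% and 19.9% of the resident macrophages in *Jak2WT* mice 1 to 5. In the mutant, the share was 27.0%, 22.7% and 24.9% in mice 6, 8 and 10 with dilation and 20.5% and 21.9% in mice 7 and 9 with aneurysm. Each mutant mouse exceeded 4 of the 5 controls, and mouse 2 lay among the mutants. The mean was 23.4% ± 2.57 (SD, n = 5) against 17.5% ± 6.04 (SD, n = 5), a difference of 5.88 percentage points that did not pass the exact permutation test (two-sided p = 0.0873, 0.193 adjusted over 9 share comparisons). Mice with dilation averaged 24.9% and mice with aneurysm 21.2%, which did not differ past the exact permutation test (p = 0.2, where 0.1 is the smallest possible). Without mouse 2 the difference between genotypes was 7.91 points (exact p = 0.00794, the smallest these numbers allow), and with cells thinned to 3000 UMIs before the rule it was 8.62 points (exact p = 0.0476, 397 cells selected). The other 15 alternatives did not pass, among them a lectin limit of 4 (4.804 points, exact p = 0.317), at least 5000 UMIs per cell (4.50 points, exact p = 0.167) and leaving out mouse 1 (4.00 points, exact p = 0.151). The median CD209-MGL1 high cell held 7422 to 11761 UMIs in *Jak2WT* mice and 10513 to 13264 in mutant mice.

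**Figure D1:**
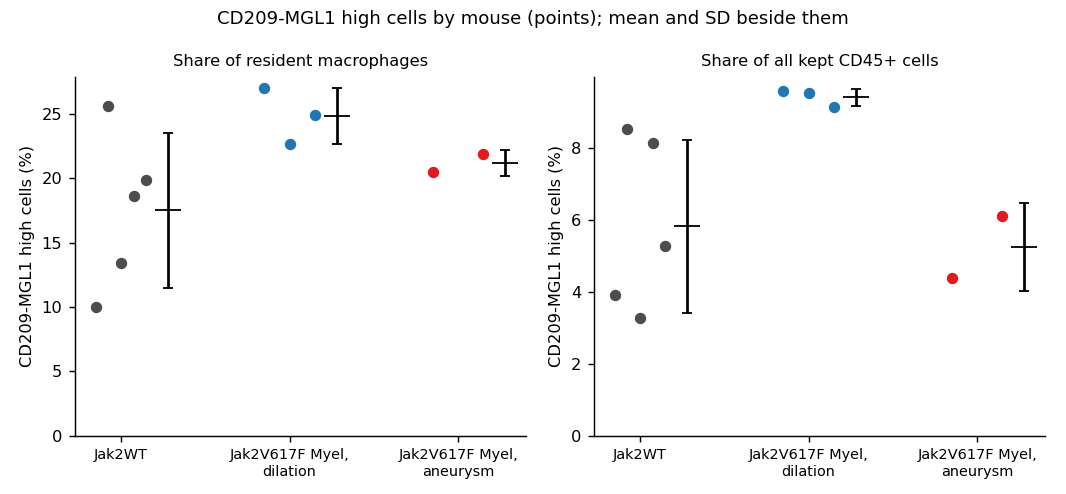
Share of CD209-MGL1 high cells in percent of resident macrophages (left) and of all kept CD45+ cells (right), with 1 point per mouse and the group mean and SD beside the points. On the left, 1 Jak2WT mouse at 25.6% lies among the mutant mice, and on the right the 3 mice with dilation sit between 9.15% and 9.59%, above all other mice at the limits used here but not at 4 of the alternative limits.

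Among all kept CD45+ cells, the share of CD209-MGL1 high cells was higher in mice with dilation than in mice with aneurysm, and its separation from *Jak2WT* mice depended on the limits used. The share was 9.59%, 9.54% and 9.15% in mice 6, 8 and 10, and 4.40% and 6.13% in mice 7 and 9 with aneurysm. In *Jak2WT* mice it was 3.91%, 8.55%, 3.27%, 8.15% and 5.29%, so the 3 mice with dilation lay above every other mouse at these limits. Dilation exceeded *Jak2WT* by 3.59 percentage points (exact permutation p = 0.0357, 0.193 adjusted over the 9 comparisons). A *Jak2WT* mouse lay above the lowest mouse with dilation at a lectin limit of 4 (15.95% against 13.2%, exact permutation p = 0.143). The same held at a lectin limit of 12 (6.27% against 6.10%), with the top hashtag at 5 times the second (8.94% against 8.90%) and with at least 5000 UMIs per cell (9.699% against 9.58%), each with an exact permutation p of 0.0536. Aneurysm lay 4.16 points below dilation (exact permutation p = 0.1, the smallest that 2 against 3 mice can give). All resident macrophages together were 38.1% of kept cells in dilation and 24.7% in aneurysm, so the share of other leukocytes moved with this measure. Across genotypes the share was 7.76% ± 2.36 in *Jak2V617F Myel* and 5.83% ± 2.41 in *Jak2WT* (SD, n = 5 each, exact permutation p = 0.214).

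The antibodies, which the rule did not use, were compared between CD209-MGL1 high cells and the other resident macrophages of the same mice. MGL1 protein was counted at 5.55, 5.37, 12.9, 8.09 and 16.2 UMIs per CD209-MGL1 high cell in mice 1 to 5 and at 12.8, 11.1, 10.2, 12.03 and 9.19 in mice 6 to 10. In the other resident macrophages it was 2.17, 2.62, 2.51, 3.40 and 3.09 in mice 1 to 5 and 3.22, 4.18, 2.61, 2.53 and 2.48 in mice 6 to 10. The classes did not overlap, since the lowest CD209-MGL1 high value exceeded the highest of the others. The log2 fold change was 1.67 (SE 0.15, adjusted p = 2.96e-06, edgeR quasi-likelihood test with the mouse as a block). MGL1 is the product of *Clec10a*, a gene of the rule, so the choice of cells favored this difference and its p-value is no separate support. Counts per cell are given as counted, and fold changes are scaled by TMM over the antibodies. In total 18 of 73 antibodies passed this test (24.7%), of which 9 were higher and 9 lower in the CD209-MGL1 high cells.

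TIM4, CD163 and CD169, surface receptors of resident macrophages, were among the higher 9. TIM4, which binds phosphatidylserine on dying cells, was counted at 58.0 ± 11.4 UMIs per cell against 32.8 ± 4.16 (SD, n = 10 mice), higher in 9 of 10 mice (log2 fold change 0.67, adjusted p = 0.000136). CD163, the receptor for haptoglobin-hemoglobin complexes, was at 989 ± 333 against 639 ± 142 and higher in all 10 mice (0.46, adjusted p = 0.000225). CD169 (sialoadhesin) had a log2 fold change of 0.46, and the costimulatory receptor CD40 one of 0.56. MHC class II (I-A/I-E, 0.39, lost without mouse 2, 3, 6, 8 or 9), PIR-A/B (0.37), the integrin CD11b (0.26) and the ectonucleotidase CD39 (0.20, lost without mouse 7) also passed the test. When scaled by total antibody UMIs instead, CD11b (-0.02) and CD39 (-0.08) turned to the other direction.

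The 9 lower antibodies included adhesion and monocyte-associated proteins. The tetraspanin CD9 was at 7.58 ± 2.20 UMIs per cell against 17.2 ± 4.87 (SD, n = 10 mice), lower in every mouse (log2 fold change -1.32, adjusted p = 0.000224). The fractalkine receptor CX3CR1 was at 3.86 ± 0.897 against 5.71 ± 1.31 and also lower in every mouse (-0.69, adjusted p = 0.000224). CD11c (-1.33), CD43 (-0.78), CD44 (-0.39), the lipopolysaccharide coreceptor CD14 (-0.38) and NK1.1 (-0.35) were lower, of which CD11c, CD44 and NK1.1 did not pass without some of the mice. The integrins ITGB7 (-1.70) and CD103 (-1.49) were both near 1 UMI per cell or under it. Their differences shrank to -0.25 (adjusted p = 0.458) and -0.20 (adjusted p = 0.492, edgeR) when cells with UMIs of other lineages were removed, where CD11b, CD39, MHC class II and NK1.1 did not pass either. MGL2 (0.38, adjusted p = 0.154), CD95, CD178 and JAML (0.23, -0.12 and 0.04) did not pass. The split of 9 higher and 9 lower became 4 and 29 when antibodies were scaled by their total, 13 and 6 when scaled by cell number, and 5 and 4 when scaled by isotype controls. MGL1, TIM4, CD163, CD40 and CD9 passed under all 17 alternatives. None of these alternatives matched the classes on the summed level of *Lyve1*, *Folr2*, *F13a1* and *Cbr2*. The median of this level was higher in CD209-MGL1 high cells than in the other resident macrophages. Its part in the higher and lower antibodies was not tested.

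**Figure D2:**
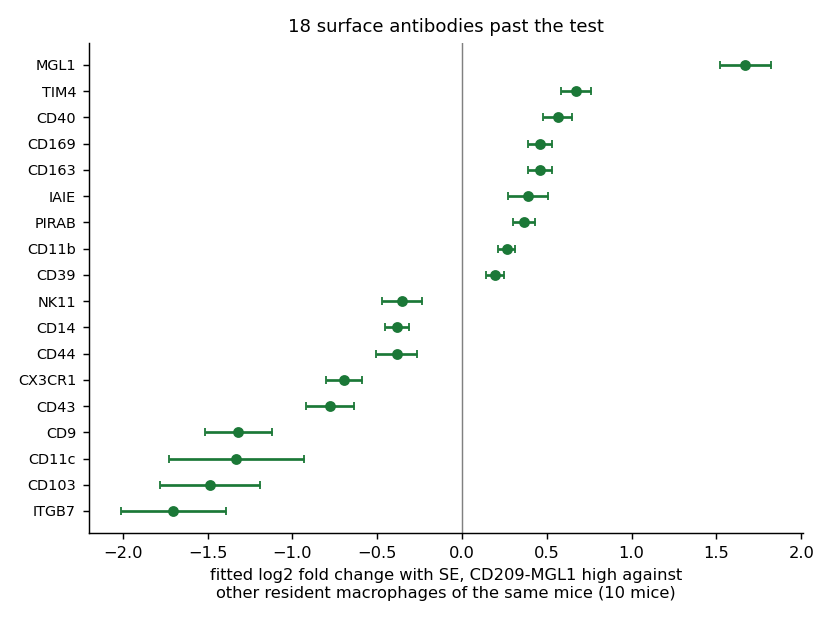
Fitted log2 fold change (points) with SE (bars) of the 18 antibodies that passed the test between CD209-MGL1 high and other resident macrophages of the same 10 mice. MGL1, the product of the rule gene Clec10a, lies at 1.67, well above TIM4 at 0.67. ITGB7, CD103, CD11c and CD9 lie below -1, of which ITGB7 and CD103 move to -0.25 and -0.20 without cells that hold markers of other lineages.

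MGL1 protein was higher at higher lectin levels, also below the limit of the rule. The median count per cell, taken per mouse and then over mice, was 1 in 454 resident macrophages without a lectin UMI, 2 at 2 to 4 lectin UMIs per 10000, and 3 at 4 to 8. Above the limit it was 4.5 at 8 to 16, 5 at 16 to 32, and 11 at 32 or more. CD163 went from 378 to 1423 and TIM4 from 18.2 to 70 between the lowest and the highest of these levels, with a dip of CD163 from 678 to 639 across the limit. There was no step at the limit, and cells just inside had a median of 3 MGL1 UMIs against 4 just outside. Within the CD209-MGL1 high cells, the MGL1 share of antibody UMIs varied with *Clec10a* (Spearman rho 0.296 over 349 cells) and less with the sum of *Cd209d*, *Cd209f* and *Cd209g* (0.112).

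**Figure D3:**
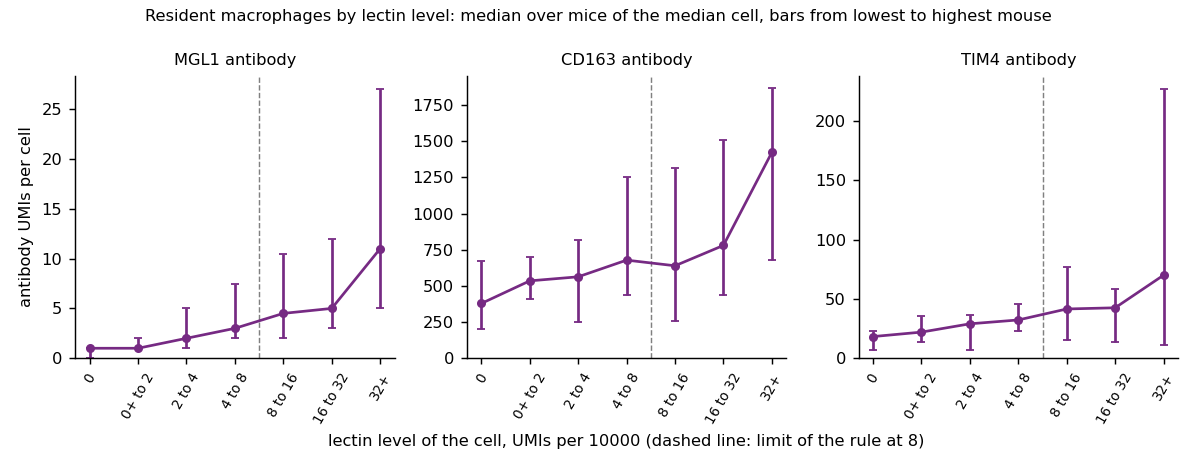
Antibody UMIs per cell for MGL1, CD163 and TIM4 across resident macrophages grouped by lectin level in UMIs per 10000, as the median over mice of the median cell, with bars from the lowest to the highest mouse. MGL1 climbs from 1 to 11 with no step at the dashed limit of 8, and the spread between mice is widest in the highest group.

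Transcripts outside the rule were described between the same classes, without a test, since the rule read transcripts of these cells. Of 3020 such genes at 0.5 or more UMIs per 10000 in either class, 107 (3.54%) were higher in the CD209-MGL1 high cells of all 10 mice and 161 (5.33%) were lower in all 10. The median of the mean log2 differences was -0.03 (SD 0.32 over genes). The 12 genes with the largest difference in each direction, among those that pointed the same way in all mice, were named.

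*Cd209b*, another member of the lectin family, led the higher genes, followed by *Mmp9* and then *Cd209a*. *Cd209b* (SIGN-R1, a lectin of marginal zone macrophages) was at 0.260 to 3.02 UMIs per 10000 in CD209-MGL1 high cells (median 1.90) and at 0.00922 to 0.283 in the others (median 0.0825), a mean log2 difference of 3.57 (SD 1.16, n = 10 mice). *Cd209a*, known from dendritic cells, had a median of 0.777 against 0.0899 (2.27, SD 1.10). Neither was in the rule, but both are near relatives of genes that were. *Mmp9*, the gelatinase that degrades type IV collagen and elastin, was at 0.746 to 2.31 (median 1.22) against 0.0614 to 0.378 (median 0.221), so that the classes did not overlap (2.38, SD 0.68). The chemokine *Ccl8* was at 2.70 to 24.3 (median 5.16) against 0.420 to 5.44 (median 1.54), with overlap between mice (2.11, SD 0.80). The endothelin receptor *Ednrb* was at 3.18 to 6.19 (median 4.61) against 0.829 to 2.48 (median 1.60), without overlap (1.57, SD 0.46). Ficolin A (*Fcna*), a soluble pattern recognition protein, was at 2.94 to 7.42 (median 4.75) against 1.72 to 3.19 (median 2.21), with a small overlap (1.02). The remaining 6 were the secreted phospholipase *Pla2g2d* (1.16), *Tmem8* (1.14), the glutathione transferase *Mgst1* (1.07), the cytokine *Tslp* (1.02), *Foxred2* (1.01) and *Gm21188* (0.97).

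The 12 genes with the largest lower difference began with *Cx3cr1*, the transcript of the fractalkine receptor. It was at 0 to 0.289 UMIs per 10000 (median 0.0273) against 0.171 to 1.70 (median 0.410), the same direction as its protein (mean log2 difference -2.53). *Ccl4* was at 2.26 to 21.1 (median 9.34) against 22.1 to 39.2 (median 31.2), and the classes did not overlap (-1.78, SD 1.01). *Ccl3*, its neighbor on chromosome 11 and a chemokine of the same class, was at 1.54 to 8.56 (median 4.39) against 10.5 to 15.99 (median 12.7), again without overlap (-1.47, SD 0.65). The others were *Tnfaip2* (-1.77), thrombospondin 1 (*Thbs1*, -1.67), *Plp2* (-1.64), *Bcl2a1b* (-1.55), the C-type lectin Mincle (*Clec4e*, -1.45), *Lilra5* (-1.44), *Malt1* (-1.26), *Tmsb10* (-1.23) and 4-1BB ligand (*Tnfsf9*, -1.22).

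**Figure D4:**
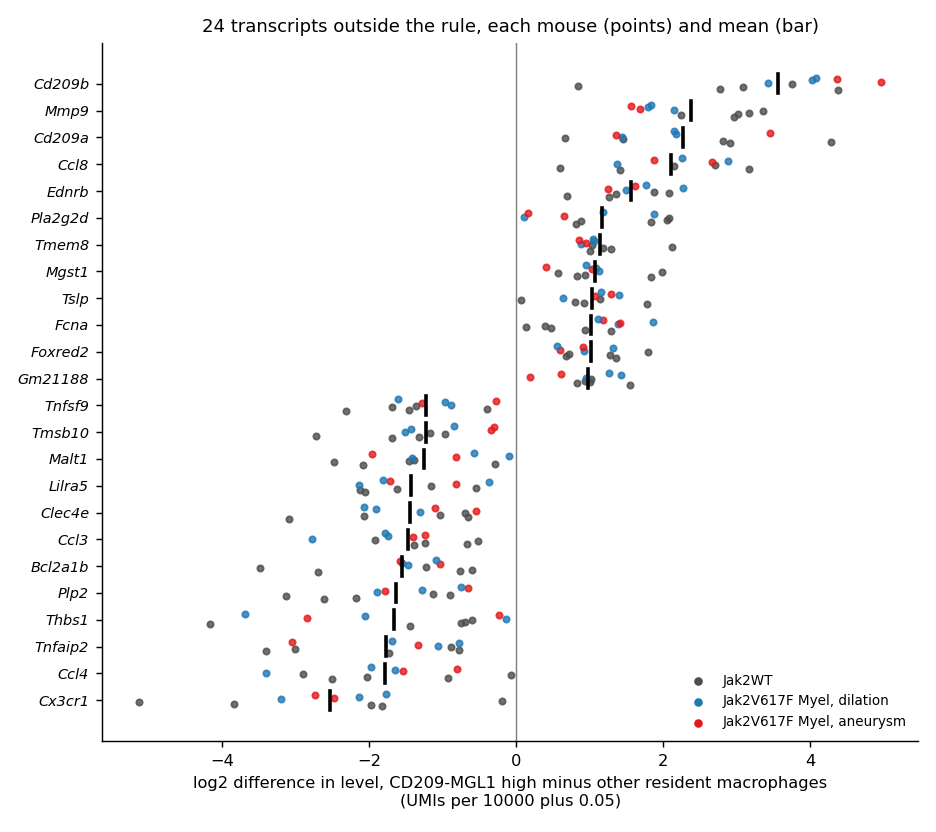
Log2 difference in level (UMIs per 10000 plus 0.05) between CD209-MGL1 high and other resident macrophages for the 24 named transcripts outside the rule, with 1 point per mouse colored by group and the mean as a bar. Every point lies on 1 side of 0 for a gene, as the choice of genes required, and Cd209b has 1 Jak2WT mouse at 0.842 far below the rest.

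The choice of cells to compare with mattered most for the lower genes. CD209-MGL1 high cells had a median of 69.9 UMIs per 10000 for *Lyve1*, *Folr2*, *F13a1* and *Cbr2* together, against 56.3 in the others. When only the 743 other resident macrophages at 50.0 or more were used, 7 of the 12 higher genes stayed higher in all mice and 3 of the 12 lower genes stayed lower in all mice. *Bcl2a1b* (-0.53), *Clec4e* (-0.40), *Tmsb10* (-0.30) and *Tnfsf9* (-0.45) were nearer to 0 by more than their SD over mice, and all 24 kept their mean direction.

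The 69 cells with *Clec10a* alone (3 to 14 per mouse) were set beside the 280 with a *Cd209* UMI (7 to 61 per mouse), as means over the 10 mice with each mouse weighted equally and with no test. *Cd209b* was at 2.06 ± 0.915 UMIs per 10000 (SD, n = 10 mice) in cells with a *Cd209* UMI, 0.231 ± 0.523 in cells with *Clec10a* alone and 0.0980 ± 0.0772 in the other resident macrophages. It was higher in cells with a *Cd209* UMI than in those with *Clec10a* alone in all 10 mice, and *Ccl8* (9.31 against 3.43) and *Fcna* (5.64 against 2.48) were so in 9 of 10. *Ccl4* (9.88 against 15.6) and *Ccl3* (4.1998 against 9.31) had no steady order between these kinds of cell, with the cells of *Clec10a* alone higher in 5 and 6 of 10 mice. *Cd163* (16.7 in both) and *Tfrc* (1.08 against 1.06), the receptors for haptoglobin-hemoglobin and transferrin, were higher in the cells with *Clec10a* alone than in the other resident macrophages (11.06 and 0.470) in 8 of 10 mice each. Surface MGL1 was 10.8, 7.81 and 2.88 UMIs per cell in the 3 classes, and in cells with *Clec10a* alone it exceeded the other resident macrophages in all 10 mice. Surface CD163 was 1082, 689 and 639, and the cells with *Clec10a* alone were above the other resident macrophages in 5 of 10 mice. For TIM4 and CD169 they were above in 6 of 10 mice each. Surface CD40 was 4.92, 2.00 and 2.59, and MHC class II (I-A/I-E) was 533, 275 and 330. In these 2 the cells with *Clec10a* alone were below the other resident macrophages in 8 and 6 of 10 mice. The cells with *Clec10a* alone were shallower (median 8947 UMIs against 11106), so that some may hold undetected *Cd209* transcripts.

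Gene lists placed these differences in pathways, with the 3.54% and 5.33% above as the background. Of 22 lectins and other resident macrophage genes outside the rule at this level, 10 were higher in all mice and none lower in all. Their median log2 difference was 0.46 against -0.03 over all genes, and lectins are the kind of gene that the rule used for its limit. The list included *Mrc1*, the mannose receptor (0.31), *Igf1* (0.56), *Cd163* (0.62), transferrin (*Trf*, 0.50) and the scavenger receptor *Cd36* (0.63). *Timd4*, the gene of TIM4, was higher in 8 mice (0.44), *Pf4* differed by 0.16, and the complement receptor *Vsig4* went the other way on average (-1.502). Of 18 inflammatory cytokines and chemokines, 5 were lower in all mice (*Ccl3*, *Ccl4*, *Tnfsf9*, *Cxcl2* and *Cxcl16*) and none higher in all, with a median of -0.82. *Il1b* was lower in 9 mice (-1.68), *Nlrp3* differed by -0.95 and *Tnf* by -0.83, whereas *Ccl2* (-0.01) hardly differed. Against the other resident macrophages of high resident level, this median was -0.28 and that of the lectins and other resident genes 0.20.

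Some lysosome and iron genes were higher in every mouse, and no test was run on the list. Of 25 such genes, 6 were higher in all mice (*Lamp2*, *Blvrb*, *Hexa*, *Ctsb*, *Cp* and *Ctsd*) and 1 was lower in all, with a median of 0.24 (0.12 against cells of high resident level). The transferrin receptor *Tfrc* (1.05) and the iron exporter ferroportin (*Slc40a1*, 0.90) were higher in 9 mice each. Of 7 complement genes outside the rule, 3 were higher in all mice, among them *Cfp* (0.70) and *C4b* (0.77). Of 13 growth factors and vessel wall signals, *Tgfbi*, *Tgfbr2*, *Igf1* and *Pdgfc* were higher in all mice and *Id2* was lower in all. Of 9 genes for matrix proteases and their inhibitors, *Mmp9* and *Timp2* were higher in all mice and *Thbs1* was lower in all, while fibronectin (*Fn1*, -2.66) was lower in 9.

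JAK-STAT genes showed no common direction. None of 21 such genes was higher or lower in all mice, and their median was 0.02. Among 17 interferon-stimulated genes the median was 0.28 and only *Ly6e* was higher in all mice. The median was 0.12 for 27 immediate-early genes, which tissue digestion can induce, with *Fosb* higher and *Nfkbia* lower in all mice. It was -0.23 for 12 heat-shock genes and 0.24 for 7 MHC class II genes. Against cells of high resident level, the medians were 1.21 for MHC class II and 0.28 for immediate-early genes. None of 12 S100 and annexin genes was higher or lower in all mice (median -0.37). Of 11 genes of lipid-associated macrophages, *Apoe* and *Ctsb* were higher in all mice, while *Cd9* was lower in 9 (-2.99) and its protein in all 10. Of 5 cell cycle genes, *Hmgb2* was lower in all mice (median -0.75, and -0.39 against cells of high resident level). Of 15 myeloid transcription factors, *Maf* was higher in all mice (0.34). Among 10 genes of apoptotic cell uptake the median was 0.14 (-0.03 against cells of high resident level) and 1 was higher in all mice.

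Markers of other cells were low in most mice but not in each. Summed T cell markers were at most 0.471 UMIs per 10000 in CD209-MGL1 high cells of any mouse, and adipocyte markers were near 0. Summed B cell markers were at 2.40 to 4.48, with *Ighm* the most abundant. Neutrophil markers summed to 1.04 to 2.78 outside mouse 9, *Mmp9* itself being the most abundant over mice, and to 23.5 in mouse 9, where 813 of 817 *S100a9* UMIs came from 1 cell. Monocyte and inflammatory macrophage markers summed to 0.715 to 8.74 and dendritic cell markers to 1.60 to 3.83. Cavity macrophage markers were at 17.8 in mouse 5. Hemoglobin transcripts reached a summed 176 in mouse 3, 103 in mouse 8 and 63.8 in mouse 10. When the 40 CD209-MGL1 high cells (191 resident macrophages) with at least 2 UMIs of 11 markers of other lineages were removed, all 24 named genes kept their mean direction, 10 of the 12 higher genes stayed higher in all mice and 7 of the 12 lower genes stayed lower in all.

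The genotypes were compared within the CD209-MGL1 high cells on UMIs summed per mouse, from 11, 30, 16, 11 and 31 cells in mice 1 to 5 and 37, 41, 37, 60 and 75 cells in mice 6 to 10. Sums held 115492 to 311614 gene UMIs in *Jak2WT* and 429020 to 822272 in *Jak2V617F Myel* mice, so control values were the less precise. Of 4594 genes, 10 passed the test (0.218%, edgeR quasi-likelihood test, adjusted p under 0.05), 5 higher (0.109%) and 5 lower (0.109%) in the mutant. 1 of the 5 higher genes was *Cd209d*, which the rule used and whose call is no finding. Without the genes of the rule, 9 of 4583 passed (0.196%), 4 higher (0.0873%) and 5 lower (0.109%), and in 94 (2.05%) the mice of the genotypes did not overlap (95 of 4594, or 2.07%, with them).

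The AP-1 repressor *Jdp2* rose from 0.629, 0.772, 0.795, 0.260 and 0.738 in mice 1 to 5 to 2.17, 1.53, 1.58, 1.76 and 1.496 in mice 6 to 10. The genotypes did not overlap (log2 fold change 1.32, SE 0.21, adjusted p = 0.0116, edgeR), and it held in 13 of 16 alternatives, though not without mouse 6. The membrane protein gene *Emp1* went from 1.10, 0.974, 0.874, 2.51 and 2.73 to 4.31, 3.67, 3.25, 6.33 and 3.56, also without overlap (1.33, SE 0.27, adjusted p = 0.0495, edgeR). In the other resident macrophages *Emp1* rose as well (0.73, adjusted p = 0.0337), and *Jdp2* did not overlap between genotypes but did not pass (1.09, adjusted p = 0.0534). The difference between the classes did not pass for *Jdp2* (0.33, adjusted p = 0.948) or *Emp1* (0.72, adjusted p = 0.626, edgeR). *Zfand2a*, a stress-induced gene of protein quality control, was at 0.0786 to 0.168 in controls and 0.377 to 0.637 in mutants (1.94, SE 0.32, adjusted p = 0.0170, edgeR), on 1 to 5 UMIs per control mouse.

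The genes that fell include a phospholipase and a sterol enzyme. *Pla2g2d*, a phospholipase known to temper inflammation through lipid mediators, was at 0.864, 2.22, 1.59, 1.56 and 1.38 in mice 1 to 5 and 0.629, 0.455, 0.902, 0.325 and 0.718 in mice 6 to 10 (log2 fold change -1.42, SE 0.27, adjusted p = 0.0372, edgeR). Control mouse 1 lay among the mutants, and the gene is also one of those higher in CD209-MGL1 high than in other resident macrophages. *Siglech*, a sialic acid-binding receptor best known from plasmacytoid dendritic cells and microglia, was at 0.786 to 1.27 against 0.309 to 0.541 (-1.18, SE 0.20, adjusted p = 0.0201, edgeR). The sestrin *Sesn1* was at 0.556 to 1.14 against 0.326 to 0.488 (-1.06, SE 0.21, adjusted p = 0.0495, edgeR). The cholesterol synthesis enzyme *Msmo1* was at 0.318 to 0.606 against 0.0546 to 0.203 (-1.68, SE 0.34, adjusted p = 0.0495, edgeR), on 3 to 15 UMIs per mouse. The genotypes overlapped in *Pla2g2d* alone of these 4. The fifth, *9930111J21Rik2*, had a log2 fold change of -0.89 (adjusted p = 0.0372, edgeR).

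**Figure D5:**
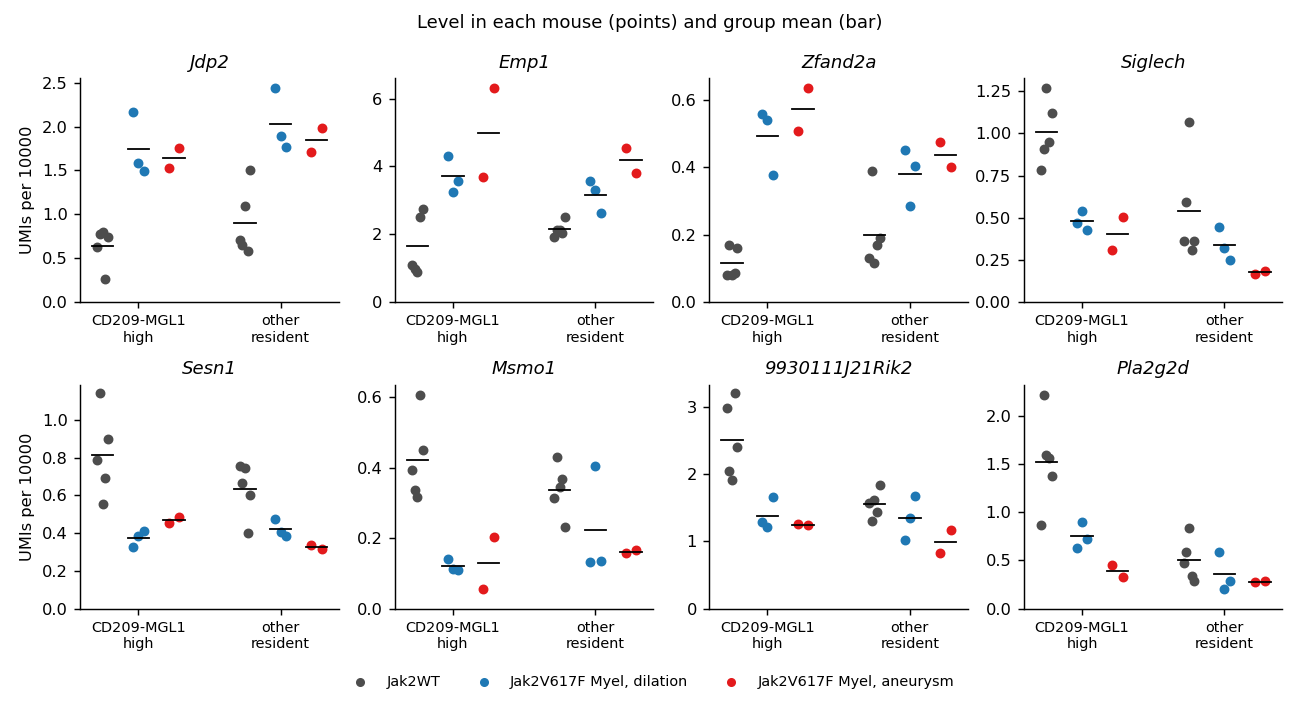
Level in UMIs per 10000 of 8 genes that passed the genotype test, in CD209-MGL1 high and other resident macrophages, with 1 point per mouse and the mean of each group as a bar. In CD209-MGL1 high cells the mutant mice lie apart from the controls for all of them but Pla2g2d.

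Individual mice carried much of the number of calls. Leaving out mouse 6, 7, 8, 9 or 10 left 0, 3, 5, 5 or 4 genes, and leaving out mouse 1, 2, 3, 4 or 5 left 6, 11, 9, 17 or 16. *Emp1*, *Sesn1* and *Msmo1* passed in 5 of 16, 5 of 15 and 4 of 14 alternatives, against 12 of 15 for *Siglech* and *Zfand2a* each and 9 of 16 for *Pla2g2d*. The number was 26 with DESeq2. Mouse 4 stood apart in lectin makeup (above) and in MHC class II genes, whose summed level was 182, 223, 138, 451 and 68.3 in mice 1 to 5 and 112, 140, 79.5, 113 and 136 in mice 6 to 10.

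Gene lists in the genotype comparison had few members past the test. Over all 4594 genes, 451 had an unadjusted p under 0.05 (edgeR), the background for the counts below. None of 7 MHC class II genes passed, although 6 had an unadjusted p under 0.05 and all 7 were lower in the mutant, with a median log2 fold change of -0.996 against -0.01 over all genes. None of 11 heat-shock genes passed, 9 had an unadjusted p under 0.05 and all 11 were higher in the mutant, with a median of 0.42. Their summed level was 119 ± 15.2 UMIs per 10000 in *Jak2WT* and 164 ± 28.7 in *Jak2V617F Myel* mice (SD, n = 5 each). None of 25 JAK-STAT genes passed (8 with unadjusted p under 0.05, median -0.08), and the same held for 22 interferon-stimulated genes (5, median -0.40). *Siglech* was the 1 of 3 dendritic cell markers to pass.

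The study reports some inflammatory transcripts as higher in its MGL1-high cluster than in other resident macrophages, a comparison of subsets and not of genotypes. Between the classes described above, *Tnfsf9* (-1.22) and *Cxcl2* were instead lower in the CD209-MGL1 high cells of all 10 mice. *Nlrp3* and *Tnf* were also lower on average, *Ccl2* hardly differed, and no test was run. The cells here were chosen by limits on transcripts and not by the study's clusters, so the sets of cells differ. Between genotypes within the cells selected here, none of the transcripts that the study names passed. None of 18 inflammatory genes passed (median 0.16). Of these, 4 had an unadjusted p under 0.05, against 451 of all 4594 genes (edgeR). *Tnfsf9* was at 0.0786, 0.537, 0.397, 0.346 and 0.449 in mice 1 to 5 and 0.816, 1.55, 0.744, 1.80 and 0.693 in mice 6 to 10. These did not overlap, but the log2 fold change of 1.48 did not pass (SE 0.37, adjusted p = 0.124, edgeR). *Cxcl10* had 1.03 (adjusted p = 0.269), *Cxcl1* 0.86 (0.636), *Cxcl2* 0.48 (0.675), *Nlrp3* 0.42 (0.855), *Tnf* 0.09 (0.965) and *Ccl2* -0.22 (0.857). *Tnf* rose in the other resident macrophages (0.84, adjusted p = 0.0297), and the difference between the classes did not pass (-0.67, adjusted p = 0.626). The resident markers *Pf4* (-0.08, adjusted p = 0.905) and *Mrc1* (-0.10, adjusted p = 0.868, edgeR) did not pass. *Lyve1*, which the rule used and which therefore carries no test, was at 15.8 ± 3.64 UMIs per 10000 in *Jak2WT* and 17.998 ± 1.83 in *Jak2V617F Myel* mice (SD, n = 5 each).

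Sums of *Jak2* itself check little, because the mutant transcript is counted as the same gene. They held 1 to 26 UMIs per mouse in CD209-MGL1 high cells (means 0.266 and 0.221 UMIs per 10000) and were too few for the test. *Lyz2*, the gene of lysozyme M whose promoter drives the Cre, was at 106, 47.6, 56.2, 73.1 and 101 in mice 1 to 5 and 43.2, 46.4, 48.3, 46.9 and 48.3 in mice 6 to 10. Controls 2 and 3 lay near the mutants, and the log2 fold change was -0.73 (adjusted p = 0.088 with edgeR, 0.0493 with DESeq2).

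Severity was asked within the mutant and against controls. Between dilation and *Jak2WT*, 0 of 5719 genes passed (0%, edgeR), 401 had an unadjusted p under 0.05 and DESeq2 called 2, and 1 to 6 passed without mouse 3, 4, 5 or 8. Between aneurysm and dilation, 0 of 5719 passed (0%, edgeR), 206 had an unadjusted p under 0.05 and DESeq2 called 0, and 1 to 6 passed without mouse 1, 5, 7 or 8. *Tnfsf9* differed by 1.14 between aneurysm and dilation (adjusted p = 0.185). The second comparison rests on 2 mice with aneurysm. Without mouse 7, where 6 genes passed, 1 such mouse is left and is assumed to vary like the other groups.

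Surface proteins of CD209-MGL1 high cells showed 0 of 64 antibodies past the genotype test (0%, edgeR), with 6 at an unadjusted p under 0.05 and 5 called by DESeq2, all lower. Scaled by cell number instead, 14 were higher. CD40 was at 2.45, 3.20, 2.69, 3 and 2.06 UMIs per cell in mice 1 to 5 and 6.11, 6.63, 6.24, 4.73 and 5.87 in mice 6 to 10, without overlap (log2 fold change 0.56, SE 0.19, adjusted p = 0.309). CD163 likewise was at 722 ± 160 in *Jak2WT* and 1257 ± 210 in mutant mice (SD, n = 5 each), and after scaling its log2 fold change was 0.21 (adjusted p = 0.714). Antibody depth moved with genotype, with a mean over mice of 1963 antibody UMIs in the median cell of *Jak2WT* and 2506 in *Jak2V617F Myel* mice, and its part in the values per cell was not tested. MGL1 protein was at 9.61 ± 4.77 and 11.1 ± 1.44 (adjusted p = 0.598), so the genotypes overlapped.

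Whether the mutation acted differently in CD209-MGL1 high cells than in the other resident macrophages was tested for 8614 genes, and 5 passed (0.058%), 4 with a higher (0.0464%) and 1 with a lower difference (0.0116%). *Hspa1b*, an inducible heat-shock protein whose reads may be split with its near copy *Hspa1a*, was at 18.6 to 24.9 UMIs per 10000 in *Jak2WT* and 23.4 to 45.2 in mutant CD209-MGL1 high cells. In the other resident macrophages it was at 28.4 to 37.4 in *Jak2WT* and 23.8 to 39.9 in mutant mice. Its genotype difference passed in neither class (0.47, adjusted p = 0.300, and -0.05, adjusted p = 0.944, edgeR). The difference between classes was 0.59 (adjusted p = 0.039, edgeR). This difference between classes passed in 8 of 14 alternatives (adjusted p up to 0.155) and was lost without mouse 3, 5, 7, 8, 9 or 10. The values of *S100a9*, *Mucl1* and *Ltbp1* rested on few mice in both classes. In CD209-MGL1 high cells *S100a9* had 817 UMIs in mouse 9 and 0 to 7 elsewhere, *Mucl1* had 218 in mouse 6 and 0 elsewhere, and *Ltbp1* had 26 in mouse 5 and 1 in mouse 10, in each case nearly all in 1 cell. In the other resident macrophages *S100a9* had 216 UMIs in mouse 2 and 491 in mouse 9, *Mucl1* had 243 in mouse 4 and 0 to 4 elsewhere, and *Ltbp1* had 54 in mouse 10 and 0 to 19 elsewhere. The number of such genes was 14, 13 and 8 without mouse 1, 2 or 3, and 3, 2 and 3 without mouse 8, 9 or 10. In the other resident macrophages alone, 13 of 8013 genes passed between genotypes (0.162%), 7 higher (0.0874%) and 6 lower (0.0749%).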

How the data were processed

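The authors deposited 1 table of UMI counts from Cell Ranger 6.0.2 on mm10, with 32285 genes, 75 antibodies and 10 hashtags in 8471 barcodes. These counts are whole and not normalized, and 7196 barcodes passed the hashtag limit. The labels name Seurat, which was not used here, and the authors' cell clusters were not used here. The hashtag was the label of the mouse, and the mouse was the replicate. No other column of per-sample values was used.

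Per mouse and cell class (at least 10 cells), UMIs were summed, and edgeR 4.0.16 in R 4.3.3 was run on the sums with filterByExpr and TMM scaling (quasi-likelihood F test, two-sided, Benjamini-Hochberg over all features, threshold 0.05), with the mouse as a block where both classes were compared. DESeq2 1.42.0 was an alternative. Shares were compared by exact permutation tests over all splits of the mice (Python 3.11.15, numpy 2.4.6). Log2 differences of transcripts between classes used a pseudocount of 0.05 UMIs per 10000. Cells thinned to 3000 UMIs served shares of cells with a UMI, and no doublet caller was run beyond the hashtag limit. The fits were tested on simulated data. Gene positions are from GENCODE vM21 (GRCm38) and starts of genes from RefSeq.

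The cells, gene lists and tests were chosen with earlier results of these data known. Genes named are *Jak2*, *Lyz2*, the genes of the rule, called genes whose genotypes did not overlap (up to 12 in each direction, leaving out predicted, Rik, mitochondrial and ribosomal genes), called genes of the lists, transcripts the study names, all antibodies called, and for the classes the 12 genes with the largest difference in each direction that pointed the same way in all mice. *Pla2g2d* and *9930111J21Rik2*, which this rule leaves out of the genotype comparison, were added after their values were seen, as were genes named from the lists between classes. 2 of the 75 antibodies (Sca1 and a rat isotype control) had no counts. Some genes that passed a test or a count are not reported here.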

Additional observations from a re-analysis of the deposited data

Results flagged for a closer look

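Among 70 groups of 4 to 10 values, 3 had 1 mouse far from the rest, and chance alone gives about 1 in 20. *9930111J21Rik2* in CD209-MGL1 high cells was at 1.65 UMIs per 10000 in its highest *Jak2V617F Myel* mouse (mouse 10), and the next mouse was at 1.28. The log2 difference of *Cd209b* between CD209-MGL1 high and other resident macrophages was 0.842 in mouse 4, whose lectin UMIs were mostly *Clec10a*, and the next mouse was at 2.77. That of *Tmem8* was 2.12 in mouse 4, and the next mouse was at 1.28.

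For 4 genes given here the genotype difference in CD209-MGL1 high cells differed from that in the other resident macrophages by the test of the interaction. On the log2 scale it differed by 0.59 for *Hspa1b* (adjusted p = 0.039, edgeR). The fitted values of *S100a9* (5.09, adjusted p = 0.00441, edgeR), *Mucl1* (14.89, adjusted p = 9.1e-05, edgeR) and *Ltbp1* (-6.38, adjusted p = 0.039, edgeR) are no bounds. Of the *S100a9* UMIs of these cells in mouse 9, 813 of 817 were in 1 cell, and 5 of 60 cells had any. All 218 *Mucl1* UMIs in mouse 6 and all 26 *Ltbp1* UMIs in mouse 5 were in 1 cell each. In the other resident macrophages *Mucl1* had 243 UMIs in mouse 4, and *S100a9* had 216 in mouse 2 and 491 in mouse 9.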

How the results depend on the processing

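The share of CD209-MGL1 high cells among resident macrophages stayed higher in *Jak2V617F Myel* mice in every alternative. The difference was 8.62 percentage points (exact permutation p = 0.0476) with cells thinned before the rule and 4.00 to 7.91 with 1 mouse left out. Among all kept cells it was 1.28 to 2.77 with 1 mouse left out. Genes called between genotypes within these cells numbered 26 with DESeq2, 148 without a filter on low counts, 3 with cells thinned, 16 without cells that hold markers of other lineages (chosen after seeing the data), and 0 to 17 with 1 mouse left out. For dilation against *Jak2WT* the numbers were 2 with DESeq2, 103 without a filter and 0 to 6 with 1 mouse left out. For aneurysm against dilation they were 45 without a filter, 3 at a lectin limit of 12 and 0 to 6 with 1 mouse left out. Antibodies called between genotypes numbered 14 when scaled by cell number, 5 with DESeq2, 2 at a lectin limit of 12 and 0 to 1 with 1 mouse left out. Antibodies called between classes numbered 33 when scaled by total, with a median log2 fold change over antibodies of -0.39 instead of -0.12, then 9 when scaled by isotype controls and 14 to 20 with 1 mouse left out. Scaled by total, CD11b was at -0.0166 and CD39 at -0.0835. Without the mouse as a block 13 antibodies passed. The interaction test also held the mouse as a block and was not run without it. Genes whose genotype difference differed between classes numbered 49 without a filter, 2 at a lectin limit of 12 (where *S100a9* was at -0.92 and *Ltbp1* at 0.87), 17 with at least 20 cells of both classes, 10 without cells that hold markers of other lineages, and 2 to 14 with 1 mouse left out. The cause of these changes was not tested. The *Jak2WT* sums, from 11 to 31 cells per mouse, limit the precision of the genotype comparison.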
